A study of Mus musculus with 12 samples.

Results

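Brush border genes of the intestine are described here in RNA from sorted intestinal stem cells (ISCs) of young and old mice. The set was a list of 10 named genes, Lct, Sis, Treh, Mgam, Anpep, Dpp4, Alpi, Vil1, Espn and Myo1a, found by Ensembl identifier and symbol among the 54232 genes of the count table. All 10 were found, and all 10 were among the 13368 genes that passed the filter on low counts (over 5 reads and, in 1 library or more, a scaled count (CPM) of 1 or more). ISCs had been isolated from crypts of the small intestine after the villi were removed, and sequenced from the 3′ end of transcripts in 12 libraries of 1 mouse each, 3 in each of 4 groups. SM6 young and SM6 old were wild-type C57/Bl6 mice of 2 and 22 months. Lgr5-GFP young and Lgr5-GFP old were mice of the same 2 ages with the allele that the labels spell Lgr5-EGFP-IRES-CreERT and the methods end in CreERT2, in which green fluorescent protein and a Cre recombinase are made from the gene of the stem cell receptor Lgr5. Isolation and strain therefore cannot be told apart. The submitted protocol gives 1 sort on surface markers for all libraries, while a figure legend describes sorting of the reporter mice on fluorescence, so the names follow the sample titles.

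The brush border is the layer of microvilli on the apical side of enterocytes, the absorptive cells that form as stem cell progeny leave the crypt for the villus. Bundles of actin hold each microvillus upright, and enzymes anchored in its membrane finish the digestion of sugars and peptides. Brush border genes are used as marks of enterocyte differentiation, although some are already transcribed in the crypt. In RNA from sorted cell suspensions, a change in the number of cells of a type and a change in the RNA per cell cannot be told apart.

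Libraries held between 970472 and 3815425 counts with a median of 1424340, and values below are CPM, counts scaled to a common library size after TMM adjustment of the totals. Lgr5 lay between 216.6 and 356 CPM in all 12 libraries, and the stem cell gene Olfm4 between 5397 and 11904 CPM. Ptprc, which marks blood cells, was at 0 CPM in all 6 old libraries and at most 1.89 CPM in the young ones. Defensin transcripts of Paneth cells took 1.26% to 8.24% of counts in young and 4.98% to 23.1% in old SM6 mice, against 5.57% to 23.2% in young and 2.27% to 3.86% in old Lgr5-GFP mice. SM6 old replicate 3 and Lgr5-GFP young replicate 1 stood apart with 23.1% and 23.2%, so results are also given without both. SM6 old replicate 3 also had the lowest level of 9 members in its group. Leaving it out therefore raises the SM6 old means of these 9 genes. Because the reads are 3′ tags, CPM values were compared between groups for 1 gene and not between genes.

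The members lie on 8 autosomes of GRCm38, and 3 of them, Alpi, Lct and Vil1, lie on chromosome 1. Alpi is at 87098002 to 87101606 and Lct at 128284756 to 128328318, both on the minus strand, and Vil1 is at 74409376 to 74435559 on the plus strand. Sis is on chromosome 3 (72888557 to 72967863, minus strand), Espn on chromosome 4 (152120331 to 152152371, minus strand) and Mgam on chromosome 6 (40628831 to 40769123, plus strand). Treh is on chromosome 9 (44673233 to 44686305, plus strand), Anpep on chromosome 7 (79821803 to 79861059, minus strand), Dpp4 on chromosome 2 (62330073 to 62412231, minus strand) and Myo1a on chromosome 10 (127705170 to 127720940, plus strand). All 10 are annotated as protein-coding. Exon bases were shared with a gene on the other strand for Dpp4 (232 bases, the antisense gene Gm13561), Vil1 (49 bases, Usp37) and Treh (2 bases, Phldb1), and whether counting used strand was not stated. The other intestinal alkaline phosphatase gene, Akp3, resembles Alpi in sequence, and reads shared by both would be uncertain. Akp3 had between 0 and 7 counts in a library.

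Promoter sequence is shown for Alpi, Sis, Lct and Treh, the 4 enzymes whose levels differed most between groups, and for Mgam, a disaccharidase whose level differed little. Each run is the 250 bases upstream of the RefSeq start on GRCm38.p6, written 5′ to 3′ on the strand of the gene, with matches in capitals to 4 short motifs of factors known in enterocytes. The motifs are those of HNF4, CDX, HNF1 and GATA factors, searched on both strands, and none of the matches shown overlap. The windows are chr1:87101607-87101856, chr3:72967864-72968113, chr1:128328319-128328568 and chr6:40628581-40628830, and chr9:44672983-44673232 for Treh, where Alpi, Sis and Lct are on the minus strand and Mgam and Treh on the plus strand.
Alpi: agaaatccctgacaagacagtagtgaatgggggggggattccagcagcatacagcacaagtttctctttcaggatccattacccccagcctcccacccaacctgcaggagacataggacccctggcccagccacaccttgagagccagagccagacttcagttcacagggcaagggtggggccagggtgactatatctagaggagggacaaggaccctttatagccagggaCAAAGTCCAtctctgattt
Sis: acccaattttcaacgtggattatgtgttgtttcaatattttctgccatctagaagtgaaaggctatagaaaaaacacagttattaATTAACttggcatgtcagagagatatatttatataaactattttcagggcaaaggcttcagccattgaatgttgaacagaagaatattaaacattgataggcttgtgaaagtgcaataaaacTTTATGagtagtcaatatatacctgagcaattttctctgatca
Lct: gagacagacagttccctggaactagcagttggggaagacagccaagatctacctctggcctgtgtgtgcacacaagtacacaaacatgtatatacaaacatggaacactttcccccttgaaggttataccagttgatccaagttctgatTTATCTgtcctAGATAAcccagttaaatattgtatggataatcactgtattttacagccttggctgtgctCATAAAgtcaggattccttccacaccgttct
Treh: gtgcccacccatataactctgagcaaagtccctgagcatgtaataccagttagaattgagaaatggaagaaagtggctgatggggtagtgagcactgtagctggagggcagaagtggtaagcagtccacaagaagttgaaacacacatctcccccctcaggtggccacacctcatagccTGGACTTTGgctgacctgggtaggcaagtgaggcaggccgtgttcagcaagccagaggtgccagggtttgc
Mgam: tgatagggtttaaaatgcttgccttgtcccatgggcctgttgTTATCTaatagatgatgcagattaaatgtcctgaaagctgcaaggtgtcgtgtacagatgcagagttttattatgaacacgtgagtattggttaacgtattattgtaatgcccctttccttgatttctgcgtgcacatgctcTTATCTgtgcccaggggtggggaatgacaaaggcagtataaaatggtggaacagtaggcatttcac
The HNF4 letters CAAAGTCCA occurred in 0.384% of the 32851 promoters of this length in the RefSeq table, and in 2 of the 10 members, Alpi (19 to 11 bases before the start) and Treh (71 to 63 bases before it, on the other strand). The letters TTTATG, bound by CDX factors, occurred in 10.8% of promoters and in 3 members, Sis, Lct and 1 of the 3 starts of Espn. In Sis they lay 43 to 38 bases and in Lct 31 to 26 bases before the start. The letters GTTAAT, a part of the HNF1 site, occurred in 6.43% of promoters and in Sis alone among the members. For GATA factors, AGATAA was found in 9.99% of promoters and in Lct, Dpp4 and Mgam. These are matches of letters, and binding was not measured.

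Among the disaccharidases, Lct encodes lactase, which splits milk sugar. Lct was at 11.5, 11.6 and 29.6 CPM in replicates 1 to 3 of SM6 young and at 60.8, 53.6 and 20.8 CPM in those of SM6 old. In Lgr5-GFP it was at 25.2, 17.0 and 35.6 CPM in young and 4.00, 8.94 and 3.86 CPM in old mice. The 3 Lgr5-GFP old libraries were below the other 9, and in SM6 the ages overlapped through old replicate 3 and young replicate 3. Lct fell with age in Lgr5-GFP by 2.24 on the log2 scale (SE 0.48, adjusted p = 0.0326 by edgeR's quasi-likelihood test with Benjamini-Hochberg adjustment, as for all adjusted p below). In SM6 its log2 fold change of 1.39 (SE 0.39) did not pass the test (edgeR, adjusted p = 0.0607). It did pass with DESeq2 (adjusted p = 0.0461), limma voom (adjusted p = 0.0118), and in edgeR with no filter beyond 1 count or with a CPM of 1 in 3 libraries (adjusted p = 0.000516 and 0.0496). It did not pass in the robust edgeR fit or with library totals alone. With 1 library left out, it passed without SM6 young replicate 3, SM6 old replicate 3 or Lgr5-GFP old replicate 2, and in no other such fit. Without the 2 libraries rich in defensins the value in SM6 was 1.74 and passed (edgeR, adjusted p = 0.00735), and that in Lgr5-GFP was -2.28 (edgeR, adjusted p = 0.0182). The decrease in Lgr5-GFP lost its call when young replicate 1, young replicate 3, old replicate 1 or old replicate 3 was left out, with log2 fold changes from -2.28 to -1.95 (edgeR, adjusted p from 0.0731 to 0.17).

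Sis encodes sucrase-isomaltase, which splits sucrose and starch fragments. Its levels were 29.7, 19.4 and 34.7 CPM in SM6 young and 121.6, 93.7 and 35.9 CPM in SM6 old. They were 44.7, 31.2 and 65.8 CPM in Lgr5-GFP young and 28.7, 21.1 and 27.0 CPM in Lgr5-GFP old. Old libraries were above young ones in SM6 and below them in Lgr5-GFP with no overlap, although SM6 old replicate 3 lay close to the highest young library. Sis rose with age in SM6 by a log2 fold change of 1.60 (SE 0.33, edgeR, adjusted p = 0.00778). In Lgr5-GFP the log2 fold change was -0.91 (SE 0.35, edgeR, adjusted p = 0.342).

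Treh encodes trehalase, the enzyme for the fungal and insect sugar trehalose, and it was the least detected member. In SM6, young mice gave 9, 11 and 9 counts and old mice 11, 15 and 11 counts. Lgr5-GFP mice gave 19, 3 and 24 counts when young and 3, 2 and 0 when old. Lgr5-GFP old was thus at or under 3 counts in every library, the floor that a count of 0 allows. Summed counts relative to TMM-adjusted library totals were 0.192 times those of Lgr5-GFP young (exact 95% interval 0.0595 to 0.481) and 0.144 times those of SM6 old (0.0441 to 0.367). These intervals cover counting error only, and neither fitted difference passed the test (edgeR, adjusted p = 0.177 and 0.0618). In SM6 the ratio of old to young was 1.54 (0.921 to 2.60).

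Mgam encodes maltase-glucoamylase, which releases glucose from starch fragments and is closely related to sucrase-isomaltase. It was at 384, 358 and 303 CPM in SM6 young, 422, 450.0 and 338 CPM in SM6 old, 389, 313 and 337 CPM in Lgr5-GFP young and 322, 348 and 350.1 CPM in Lgr5-GFP old. All groups overlapped with at least 1 other group. The age effects on the log2 scale were 0.21 in SM6 (95% interval -0.12 to 0.55) and -0.029 in Lgr5-GFP (-0.37 to 0.31).

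The ratio of both genes within a library does not depend on library scaling. Sis counts per 100 Mgam counts were 7.75, 5.43 and 11.5 in SM6 young and 28.8, 20.8 and 10.6 in SM6 old. They were 11.5, 9.97 and 19.6 in Lgr5-GFP young and 8.90, 6.08 and 7.71 in Lgr5-GFP old. SM6 old replicates 1 and 2 had the highest ratios of all libraries, while replicate 3 fell within the range of SM6 young. The Lgr5-GFP old libraries lay below all Lgr5-GFP young libraries. This pair was chosen after the values were seen and was not tested.

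**Figure D1:**
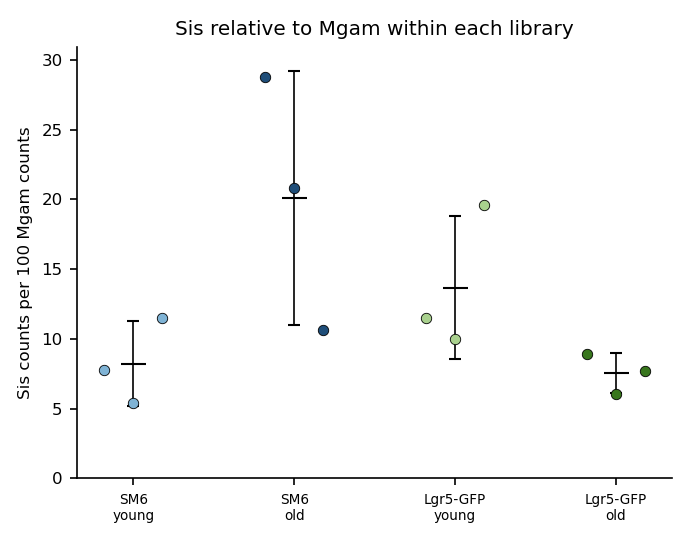
Counts of Sis per 100 counts of Mgam (vertical axis, from 0) in each of the 12 libraries, by group; bars are the mean and SD of 3 libraries. SM6 old replicates 1 and 2 stand highest at 28.8 and 20.8, and Lgr5-GFP old lies between 6.08 and 8.90.

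Of the peptidases, Anpep encodes aminopeptidase N, which removes single residues from the start of peptides. It was at 5.46, 16.6 and 31.1 CPM in SM6 young, 21.8, 25.1 and 20.8 CPM in SM6 old, 24.9, 20.8 and 36.4 CPM in Lgr5-GFP young and 22.7, 12.2 and 6.75 CPM in Lgr5-GFP old. The young SM6 libraries spanned the whole range of the old ones. Its log2 fold changes with age were 0.38 in SM6 (SE 0.42, 95% interval -0.50 to 1.26) and -0.95 in Lgr5-GFP (SE 0.42, -1.82 to -0.072), and neither passed the test (edgeR, adjusted p = 0.789 and 0.463).

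Dpp4 encodes dipeptidyl peptidase 4, which removes pairs of residues and inactivates incretin hormones. It stayed between 114 and 131 CPM in SM6 young, 119.8 and 164 CPM in SM6 old, 126 and 139.9 CPM in Lgr5-GFP young, and 114 and 131 CPM in Lgr5-GFP old. The groups overlapped. The age effects were 0.20 in SM6 (95% interval -0.14 to 0.54) and -0.12 in Lgr5-GFP (-0.46 to 0.23) on the log2 scale.

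Alpi encodes intestinal alkaline phosphatase, which removes phosphate from bacterial lipopolysaccharide and is a common mark of mature enterocytes. Alpi was at 12.7, 11.6 and 18.8 CPM in SM6 young and 90.4, 44.8 and 24.0 CPM in SM6 old. In Lgr5-GFP it was at 27.1, 17.0 and 51.7 CPM in young and 17.3, 12.2 and 7.72 CPM in old mice. The old SM6 libraries were all above the young ones but spread widely, and in Lgr5-GFP old replicate 1 and young replicate 2 overlapped. Alpi rose with age in SM6 by a log2 fold change of 1.89 (SE 0.42, edgeR, adjusted p = 0.0119). In Lgr5-GFP the log2 fold change was -1.37 (SE 0.44, edgeR, adjusted p = 0.224).

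Of the structural proteins, Espn encodes espin, which bundles actin in microvilli. Espn was at 10.3, 13.9 and 12.3 CPM in SM6 young and 32.7, 36.0 and 20.8 CPM in SM6 old, with no overlap. It was at 23.6, 11.3 and 19.5 CPM in Lgr5-GFP young and 11.3, 8.13 and 9.64 CPM in Lgr5-GFP old, where young replicate 2 was only just above old replicate 1. Espn rose with age in SM6 by a log2 fold change of 1.29 (SE 0.32, edgeR, adjusted p = 0.0278), and in Lgr5-GFP the value was -0.95 (SE 0.34, edgeR, adjusted p = 0.299).

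Vil1 encodes villin, which bundles and severs actin, and Myo1a encodes the myosin that ties the actin core to the membrane. Vil1 lay between 102 and 173 CPM in SM6 young, 106 and 165 CPM in SM6 old, 132 and 137 CPM in Lgr5-GFP young, and 117 and 146 CPM in Lgr5-GFP old. Myo1a lay between 84.8 and 148 CPM in SM6 young, 125 and 185 CPM in SM6 old, 96.4 and 120.0 CPM in Lgr5-GFP young, and 102 and 107 CPM in Lgr5-GFP old. Both genes overlapped between ages in both isolations, while the Myo1a levels of SM6 old lay above all those of Lgr5-GFP. The age effects of Vil1 on the log2 scale were -0.044 in SM6 (95% interval -0.45 to 0.36) and -0.0019 in Lgr5-GFP (-0.40 to 0.40), and the small sign in Lgr5-GFP turned under other scalings. Those of Myo1a were 0.31 in SM6 (-0.10 to 0.71) and -0.029 in Lgr5-GFP (-0.45 to 0.39).

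**Figure D2:**
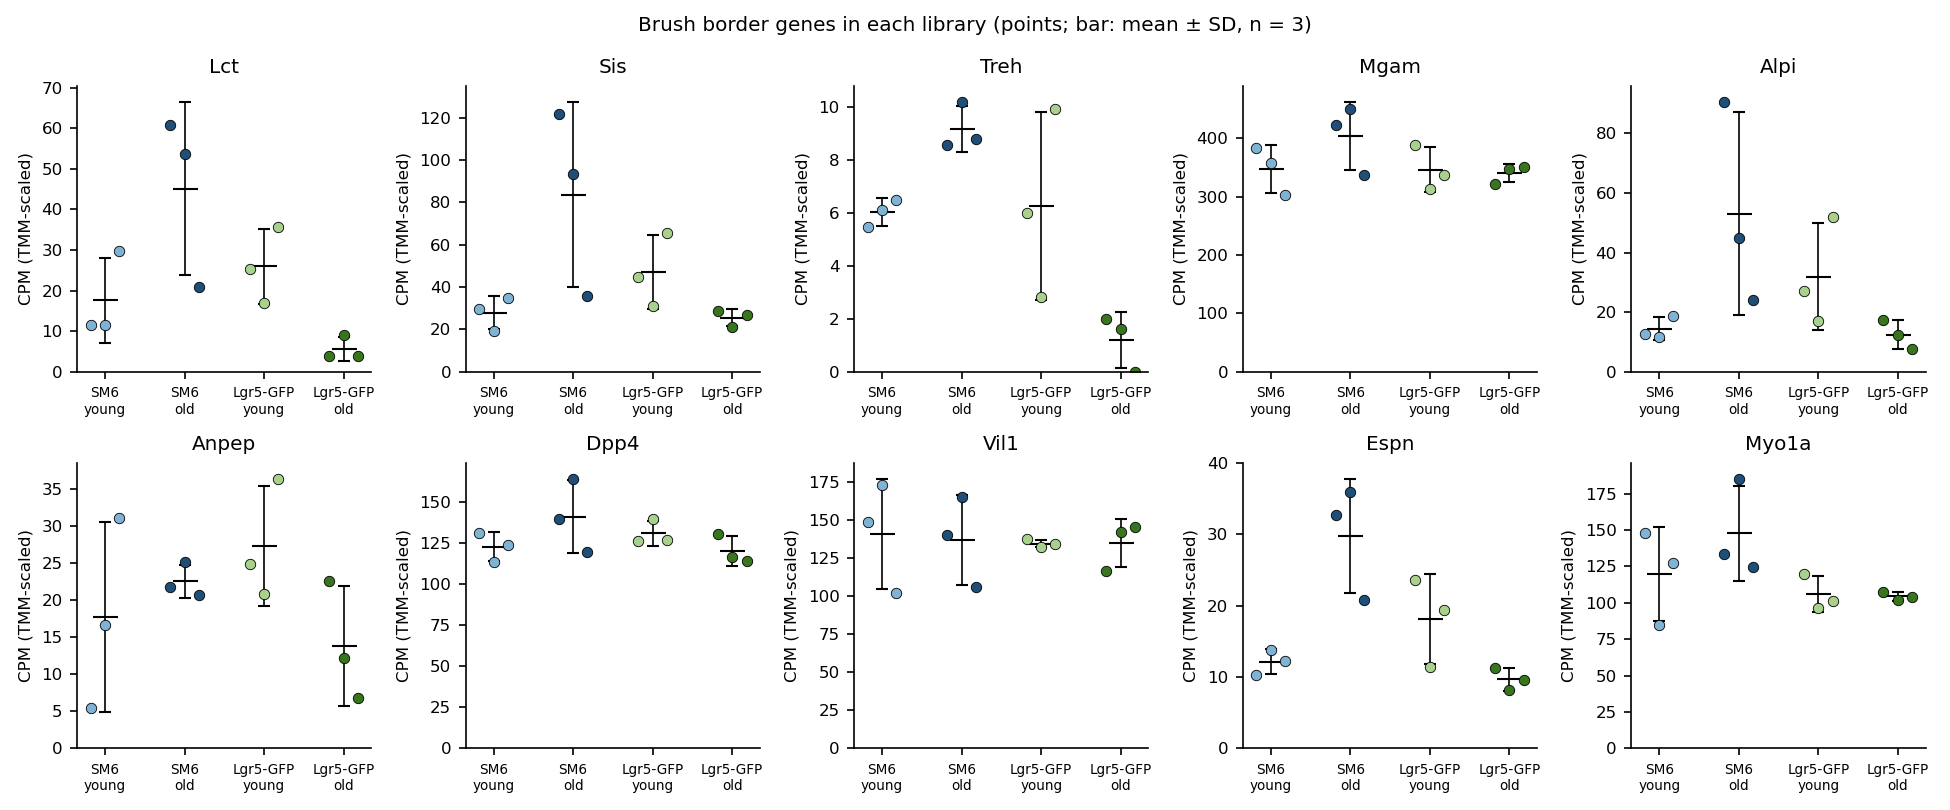
Levels of the 10 brush border genes in CPM (vertical axes, from 0, 1 scale per gene) in each library of the 4 groups; bars are the mean and SD of 3 libraries. Lct, Sis, Alpi and Espn have their highest means in SM6 old and their lowest in Lgr5-GFP old. For each of them SM6 old replicate 3 is the lowest library of its group. Mgam, Dpp4 and Vil1 overlap between all groups, and Myo1a overlaps between ages but not between SM6 old and either Lgr5-GFP group.

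Group means followed the same order for 6 members. Lct, Sis, Treh, Alpi, Espn and Dpp4 were highest in SM6 old, next in Lgr5-GFP young, then in SM6 young and lowest in Lgr5-GFP old. In all, SM6 old had the highest mean of 8 members and Lgr5-GFP old the lowest of 9, with Vil1 as the exception. Mean levels of Alpi in this order were 53.1 ± 34.0, 31.9 ± 17.9, 14.4 ± 3.85 and 12.4 ± 4.81 CPM (SD, n = 3), and those of Lct were 45.1 ± 21.3, 25.9 ± 9.31, 17.6 ± 10.4 and 5.60 ± 2.90 CPM. The libraries of SM6 old and Lgr5-GFP young overlapped for Alpi, Sis and Lct, as did those of Lgr5-GFP young and SM6 young, so these neighbours in the order did not separate. Within SM6 old, replicate 3 had the lowest level of 9 members, and within Lgr5-GFP young replicate 2 had the lowest of 9. Over the 12 libraries, the 45 pairs of members had correlations of log2 CPM from -0.38 (Anpep and Vil1) to 0.94 (Alpi and Sis) with a median of 0.58, where all pairs share the same libraries and scaling.

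To ask what age does to these genes in wild-type ISCs, SM6 old was compared with SM6 young. Of the 10 members, 3 rose (Alpi, Sis and Espn) and 0 fell, where 0.643% of all tested genes were called higher and 1.77% lower (edgeR, adjusted p under 0.05). At an unadjusted p under 0.05 there were 4 higher, against 5.45% of all genes. Log2 fold changes were above 0 for 9 of 10 members, against 49.1% of all genes, with a median of 0.49 against -0.0070 over all genes. Libraries of both ages did not overlap, with old higher, for 4 members (Alpi, Sis, Treh and Espn), against 7.74% of all genes. Without the 2 libraries rich in defensins 4 members were called higher, with log2 fold changes of 2.24 for Alpi, 1.96 for Sis, 1.74 for Lct and 1.5 for Espn. SM6 old replicate 3, left out here, was lowest in its group for 9 members. Calls over all genes in either direction rose too in this fit, to 3.29%. Without SM6 old replicate 1 no member was called, although 4 had an unadjusted p under 0.05 (edgeR), and log2 fold changes were 1.30 for Alpi, 1.25 for Sis and 1.24 for Espn. Without SM6 young replicate 2, 0 members were called and 4 had an unadjusted p under 0.05 (edgeR), with 1.76 for Alpi, 1.38 for Sis and 1.40 for Espn. Calls over all genes in either direction also fell in these 2 fits, from 2.42% to 1.19% and 1.09%. The call of Espn was also lost without SM6 young replicate 1 (1.19), young replicate 3 (1.30) or old replicate 2 (1.13), and with library totals alone (1.16, edgeR, adjusted p = 0.0595). Alpi was not called in the robust edgeR fit (adjusted p = 0.0655).

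The same comparison was made in the reporter mice. In Lgr5-GFP, 1 member fell with age (Lct) and 0 rose, where 0.284% of all genes were called lower and 0.187% higher (edgeR, adjusted p under 0.05). At an unadjusted p under 0.05 there were 6 lower (Lct, Sis, Treh, Alpi, Anpep and Espn), against 5.84% of all genes. In either direction, 3 members were past that limit without Lgr5-GFP young replicate 3 or with library totals alone, and 4 without Lgr5-GFP old replicate 2 (edgeR). Log2 fold changes were below 0 for all 10 members, while 46.3% of all genes were above 0, and the median was -0.93 against -0.034. With old lower, the libraries did not overlap for 4 members (Lct, Sis, Treh and Espn), against 7.95% of all genes. Signs of Vil1, Mgam, Myo1a and Dpp4 turned positive when library totals alone were used for scaling, which moved the median of all genes to 0.16. The count of members called ran from 0 with limma voom or the robust fit to 3 without a filter on low counts, where calls over all genes in either direction were 0.546%, 0.337% and 1.16%, against 0.471% with the edgeR test used throughout.

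**Figure D3:**
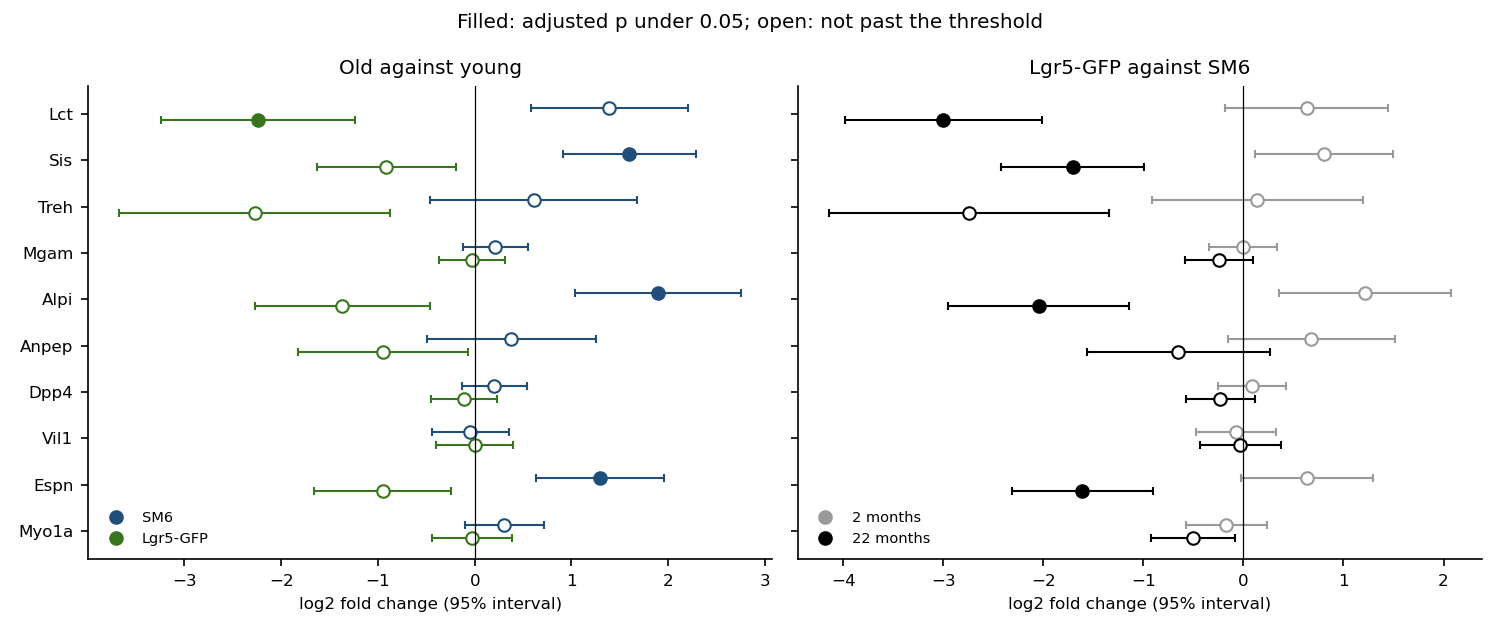
Log2 fold changes (horizontal axes) with 95% intervals of the 10 genes for old against young in each isolation (left) and for Lgr5-GFP against SM6 at each age (right); filled points passed an adjusted p of 0.05. In the left plot Lct, Sis, Alpi and Espn lie on opposite sides of 0 in the 2 isolations, and Mgam, Dpp4, Vil1 and Myo1a lie near 0.

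The 2 age effects were tested against each other in 1 model. The effect in Lgr5-GFP was lower than that in SM6 for 4 members, where 0.606% of all genes were called in this direction (edgeR, adjusted p under 0.05), and for 6 at an unadjusted p under 0.05, against 5.18% of all genes. On the log2 scale the difference was -3.63 for Lct (SE 0.62, adjusted p = 0.00554), -3.26 for Alpi (SE 0.60, adjusted p = 0.00989), -2.51 for Sis (SE 0.48, adjusted p = 0.0115) and -2.24 for Espn (SE 0.47, adjusted p = 0.0187, all edgeR). Lct, Alpi and Sis kept this call in all 12 fits that left out 1 library, while Espn lost it in 4, with values from -2.13 to -2.01 and adjusted p from 0.0501 to 0.0983 (edgeR). Those 4 were the fits without SM6 young replicate 1, SM6 old replicate 2, Lgr5-GFP young replicate 1 or Lgr5-GFP old replicate 2. Under other settings, Alpi and Sis lost the call in the robust fit (adjusted p = 0.0872 and 0.0814, edgeR), which kept Lct and Espn, and Espn lost it with library totals alone (adjusted p = 0.0664, edgeR). Treh (-2.88, adjusted p = 0.186) and Anpep (-1.33, adjusted p = 0.493) did not pass (edgeR). The intervals were -0.72 to 0.23 for Mgam, -0.80 to 0.16 for Dpp4, -0.53 to 0.61 for Vil1 and -0.92 to 0.25 for Myo1a. On average over both isolations, 0 members were called with age and 0 had an unadjusted p under 0.05, where 2.66% and 12.8% of all genes did (edgeR), and 0 were called by DESeq2 or limma voom.

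The isolations were then compared at each age, with libraries that the age comparisons also used. At 2 months 0 members were called, where 0.0898% of all genes were, and 2, Alpi (1.21) and Sis (0.80), were higher in Lgr5-GFP at an unadjusted p under 0.05 (edgeR), with 3.67% of all genes past that limit in this direction. DESeq2 and limma voom also called 0 members at this age. At 22 months 4 members were lower in Lgr5-GFP, where 0.673% of all genes were (edgeR, adjusted p under 0.05). Log2 fold changes were -3.00 for Lct (SE 0.48, adjusted p = 0.00125), -2.05 for Alpi (SE 0.44, adjusted p = 0.0207), -1.71 for Sis (SE 0.34, adjusted p = 0.0131) and -1.61 for Espn (SE 0.34, adjusted p = 0.0204, all edgeR). The old libraries of both isolations did not overlap for 6 members, against 7.41% of all genes. Only Lct was still called without SM6 old replicate 1, Lgr5-GFP old replicate 2 or Lgr5-GFP old replicate 3, and 2 members (Lct and Alpi) without SM6 old replicate 2 or Lgr5-GFP old replicate 1. The log2 fold changes that lost their call in these 5 fits were -2.01 to -1.43 for Alpi, -1.81 to -1.34 for Sis and -1.75 to -1.45 for Espn, and calls over all genes in either direction were 0.300% to 0.556%, against 0.718% with all libraries. Without the 2 libraries rich in defensins the 4 values ran from -3.32 for Lct to -1.79 for Espn, and all 4 passed. Calls over all genes in either direction were 0.885% in this fit. The robust edgeR fit called Lct and Espn but not Alpi (adjusted p = 0.125) or Sis (adjusted p = 0.072), limma voom did not call Alpi (adjusted p = 0.0596), and with library totals alone Espn was not called (edgeR, adjusted p = 0.0589).

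A further list held 33 other brush border genes, of which 30 were tested. In SM6, 1 of them rose with age and 0 fell, where 0.643% and 1.77% of all tested genes did. This was Enpep, the aminopeptidase A, with a log2 fold change of 2.09 (SE 0.44, edgeR, adjusted p = 0.00891). Of the 30, 24 had log2 fold changes above 0, against 49.1% of all genes, with a median of 0.46. In Lgr5-GFP 1 fell, where 0.284% of all genes did. This was Ggt1, a glutathione-degrading transferase (-2.70, SE 0.49, edgeR, adjusted p = 0.00969). There 6 of 30 values were above 0, against 46.3% of all genes, and the median was -0.41. Ggt1 was at 36.5, 19.9 and 29.4 CPM in Lgr5-GFP young and 5.998, 4.07 and 2.89 CPM in Lgr5-GFP old.

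The age effects differed between the isolations for 5 of the 30 (edgeR, adjusted p under 0.05), all lower in Lgr5-GFP, against 0.606% of all genes. All 5 encode enzymes of the membrane surface. The differences were -3.57 for Ggt1, -3.10 for Enpep, -2.87 for Mep1b, a subunit of the peptidase meprin, -2.70 for Asah2, a ceramidase, and -2.70 for Ace, the angiotensin-converting enzyme. When each library was dropped in turn, the call held in all 12 fits for Ggt1, 11 for Asah2, 10 for Mep1b, 7 for Enpep and 6 for Ace. Among the actin and adhesion components, Cdhr2 and Cdhr5, the cadherins that link microvilli, had age effects of 0.55 and 0.62 in SM6 and -0.44 and -0.67 in Lgr5-GFP, and none of these values passed the test. The 6 of 30 genes with values below 0 in SM6 were Pls1, Ezr, Myo6, Myo7b, Baiap2l2 and Cobl, all of this kind, at -0.64 to -0.14, and none of them passed either. On average over both isolations Myo6, a myosin that moves towards the base of microvilli, fell by 0.45 (SE 0.12, edgeR, adjusted p = 0.0340). At 22 months 7 of the 30 were lower in Lgr5-GFP than in SM6, against 0.673% of all genes (edgeR, adjusted p under 0.05), among them Ggt1 (-3.43), Asah2 (-2.30), Ace (-2.06), Mep1b (-1.93) and Cdhr5 (-1.04), and at 2 months Baiap2l1, an actin-binding adaptor, was higher (1.10, edgeR, adjusted p = 0.0393). The calls of Myo6 and Baiap2l1 held in 4 and 3 of the 12 fits.

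**Figure D4:**
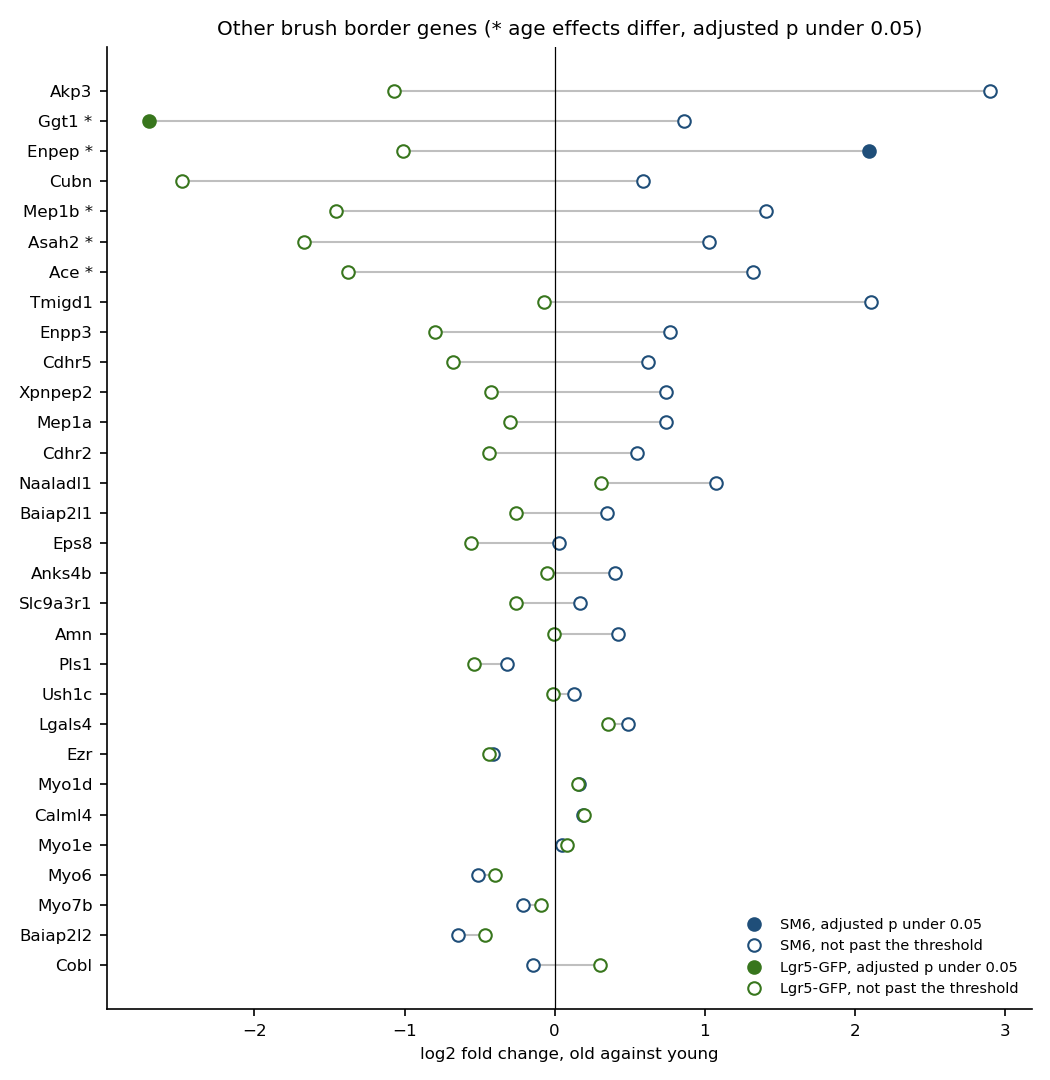
Log2 fold changes of old against young (horizontal axis) for the 30 tested genes of the list of other brush border genes, in SM6 and in Lgr5-GFP, joined by a line per gene; filled points passed an adjusted p of 0.05 and stars mark the 5 genes whose age effects differed. Most blue points (SM6) lie right of 0 and most green points (Lgr5-GFP) left of it.

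Of the 18 enterocyte genes, which are chiefly carriers and lipid-handling proteins, 5 rose with age in SM6, against 0.643% of all genes (edgeR, adjusted p under 0.05). Log2 fold changes were above 0 for 17, against 49.1% of all genes, with a median of 0.91. Those that rose included Fabp1 (2.66, SE 0.65) and Fabp2 (1.07, SE 0.26), which carry fatty acids, the amino acid carrier gene Slc6a19 (1.55, SE 0.38) and the keratin gene Krt20 (1.08, SE 0.27). In Lgr5-GFP 2 fell, the apolipoprotein genes Apoa4 (-1.64, SE 0.34) and Apoa1 (-1.47, SE 0.32), against 0.284% of all genes. There 5 of 18 values were above 0, against 46.3% of all genes, with a median of -0.53. The age effects differed for 4, against 0.606% of all genes lower in Lgr5-GFP, Apoa1 (-2.60), Krt20 (-2.28), Apoa4 (-2.44) and Slc6a19 (-3.08). Fabp1 departed from the brush border genes in Lgr5-GFP. It was at 686, 272 and 1023 CPM in young and 1334, 9851 and 780.2 CPM in old mice, so that 1 library held most of the old signal, and the log2 fold change of 2.59 did not pass (edgeR, adjusted p = 0.0779). On average over both isolations Fabp1 rose by 2.62 (SE 0.46, adjusted p = 0.00173) and Fabp2 by 0.73 (SE 0.19, adjusted p = 0.0286, both edgeR). Without Lgr5-GFP old replicate 2 the average was 1.67 for Fabp1 (edgeR, adjusted p = 0.00184), and Fabp2 was not called (0.54, edgeR, adjusted p = 0.101). Neither average was called in the robust fit, and the call of Fabp2 held in 4 of the 12 fits that each dropped 1 library. In SM6 the call of Fabp1 held in 8 of these fits and that of Fabp2 in 7.

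Of 13 transcription factors of enterocytes, 12 were tested, and 0 passed the edgeR test for age in either isolation, with 5 at an unadjusted p under 0.05 in each, 2 higher and 3 lower, where 13.1% of all genes in SM6 and 9.79% in Lgr5-GFP passed that limit in either direction. By average age effect Creb3l3, a factor of lipid genes, rose (1.38, SE 0.36, edgeR, adjusted p = 0.0338). Its old libraries were uneven, at 75.6, 36.6 and 16.0 CPM in SM6 and 28.7, 120.3 and 17.4 CPM in Lgr5-GFP, against 13.7 to 24.0 CPM in the young ones. Without Lgr5-GFP old replicate 2 the value was 0.76 (edgeR, adjusted p = 0.209), the call held in 3 of 12 fits that each dropped 1 library, and DESeq2, limma voom and the robust fit did not make it. At 22 months Klf4 was lower in Lgr5-GFP (-1.19, SE 0.27, edgeR, adjusted p = 0.0320), a call that held in 8 of 12 such fits. Of 6 genes of the proximal or distal small intestine, among them Gata4 and the ileal bile acid carrier Fabp6, 0 were called with age (edgeR), with 0 in SM6 and 2 in Lgr5-GFP at an unadjusted p under 0.05. At 22 months Fabp6 was lower in Lgr5-GFP (-2.09, SE 0.50, edgeR, adjusted p = 0.0498), a call close to the threshold. Its libraries spread from 115 to 309 CPM in SM6 old and from 21.2 to 103 CPM in Lgr5-GFP old.

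Summed levels of markers of other cell types also differed between groups, though not all in the order of the brush border genes. The 8 goblet cell genes summed to between 5712 and 9134 CPM in SM6 young, 17322 and 18248 CPM in SM6 old, 5304 and 13753 CPM in Lgr5-GFP young, and 3159 and 5504 CPM in Lgr5-GFP old. Of these, Muc2, Tff3, Zg16, Agr2 and Spink4 rose with age in SM6, against 0.643% of all genes (edgeR, adjusted p under 0.05). Age effects were lower in Lgr5-GFP for Muc2, Agr2 and Spink4, against 0.606%. At 22 months Muc2, Tff3, Clca1, Zg16, Agr2 and Spink4 were lower in Lgr5-GFP, against 0.673%. The 9 Paneth cell genes summed to between 10737 and 67495 CPM in SM6 young, 43867 and 271280 CPM in SM6 old, 43599 and 244331 CPM in Lgr5-GFP young, and 18115 and 30780 CPM in Lgr5-GFP old, and for all 9 the age effect was lower in Lgr5-GFP, against 0.606% of all genes (edgeR, adjusted p under 0.05). SM6 old replicate 3, which was lowest in its group for 9 brush border genes, was the highest for the Paneth cell genes. The 11 stem cell genes summed to between 13178 and 16322 CPM in SM6 young, 8367 and 9540 CPM in SM6 old, 12900 and 14677 CPM in Lgr5-GFP young, and 11007 and 12648 CPM in Lgr5-GFP old, and 3 of 11 fell with age in SM6, against 1.77% of all genes (edgeR, adjusted p under 0.05). Olfm4 alone made up most of these sums, with means of 10728 CPM in SM6 young and 5995 CPM in SM6 old. The 18 enterocyte genes summed to between 2703 and 3060 CPM in SM6 young, 3485 and 10869 CPM in SM6 old, 2727 and 4075 CPM in Lgr5-GFP young, and 2863 and 12700.5 CPM in Lgr5-GFP old. The highest of these sums, in Lgr5-GFP old replicate 2, held 9851 CPM of Fabp1 alone. The 8 enteroendocrine cell genes summed to between 688 and 1305 CPM in SM6 young, 994 and 3055 CPM in SM6 old, 120.1 and 239 CPM in Lgr5-GFP young, and 57.9 and 147 CPM in Lgr5-GFP old, so that the isolations did not overlap at either age, and 5 of the 8 were called lower in Lgr5-GFP at 22 months and 2 of 8 at 2 months, against 0.673% and 0.0374% of all genes (edgeR, adjusted p under 0.05). The 7 tuft cell genes summed to at most 57.3 CPM in any library. The part of these cell types in the brush border results was not tested. The 7 immune genes summed to at most 32.4 CPM and the 9 stromal and endothelial genes to at most 8.13 CPM in any library. Cd79a, Adgre1, Kdr, Col3a1 and Pdgfra were at 0 in all 12.

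**Figure D5:**
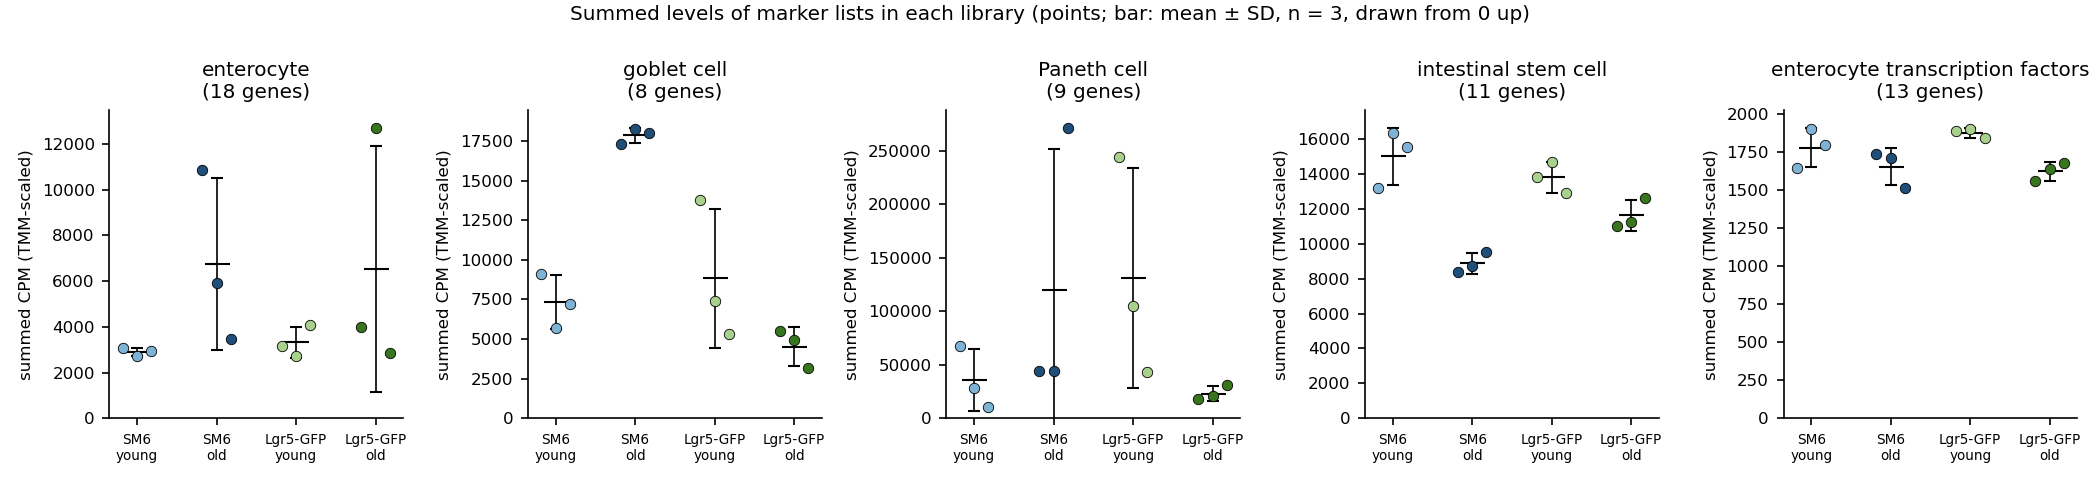
Summed CPM (vertical axes, from 0) of 5 lists of genes in each library of the 4 groups; bars are the mean and SD of 3 libraries, drawn from 0 up. Goblet cell genes are highest in SM6 old, at 17322 to 18248 CPM, and stem cell genes lowest there, at 8367 to 9540 CPM. Most of the stem cell sum is Olfm4.

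The genes outside the list whose pattern was most like that of the brush border genes were named by Pearson's correlation, over the 12 libraries, with the mean standardised log2 CPM of the 10 members. They were Cdhr2 (0.95), the cholesterol carrier gene Npc1l1 (0.93), Apoa1 (0.92), Ace (0.91) and Trim80 (0.90), of which Cdhr2 and Ace also stand on the list of other brush border genes. Mean levels of Npc1l1 (SD, n = 3) were 19.0 ± 2.25 CPM in young and 31.7 ± 13.2 CPM in old SM6 mice, and 23.0 ± 2.97 CPM in young and 12.4 ± 2.53 CPM in old Lgr5-GFP mice. Its age effects were 0.74 in SM6 and -0.86 in Lgr5-GFP (edgeR, adjusted p = 0.262 and 0.340). Cdhr2 was at 57.3 ± 6.06, 83.6 ± 20.5, 60.1 ± 7.02 and 44.7 ± 4.02 CPM in the same order of groups. Trim80 was at 0 CPM in all libraries of SM6 young and Lgr5-GFP old and at most 4.75 CPM in any other.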

How the data were processed

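RNA of sorted ISCs was sequenced from the 3′ end in 12 libraries of 1 mouse each. The authors aligned reads to GRCm38 with STAR 2.4.2a, counted them over exons of GENCODE genes with featureCounts and deposited these counts unscaled. Molecular identifiers were added, but their collapse is not stated. The exact intervals of count ratios cover counting error only, and those of the fitted fold changes include the spread between libraries. No label names a batch or date, and labels give the groups.

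Counts were analysed with edgeR 4.0.16 and limma 3.58.1 in R 4.3.3, and matplotlib 3.10.9 in Python 3.11.15 drew the figures. After the study's own filter (over 5 reads, and a CPM of 1 or more in 1 library or more), 13368 of 54232 genes were kept. Totals were adjusted by TMM, the trimmed mean of M values, and all 12 libraries entered a quasi-likelihood fit with the 4 groups as means. Tests were two-sided with Benjamini-Hochberg adjustment over all 13368 genes, and a gene was called under 0.05. Standard errors were log2 fold changes divided by the root of the test statistic, and intervals are at 95%. The code was tested on simulated counts. Alternatives were other scalings, filters and tests (DESeq2 1.42.0 among them), only the 2 groups compared, a replicate block and each library left out. Leaving out the 2 libraries richest in defensins was added after the data were seen.

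Positions are from GENCODE vM21 and promoters from RefSeq, both on GRCm38. The members and gene lists were chosen with earlier results of these data known. All 10 members are described. From the other brush border, enterocyte and transcription factor lists, up to 5, 4 and 3 called genes with the smallest adjusted p were named per comparison. Further genes named singly (Cdhr2, Cdhr5 and the genes below 0 in the age comparisons, Fabp6, the called goblet cell genes and the markers at 0) and the Sis to Mgam ratio were chosen after their values were seen. Some genes of these lists are not reported here and were left out of their counts.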

Additional observations from a re-analysis of the deposited data

Results flagged for a closer look

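The results below were singled out because the age effect in Lgr5-GFP differed from that in SM6 by a test of the difference itself (edgeR quasi-likelihood interaction, Benjamini-Hochberg adjusted p under 0.05). Values are Lgr5-GFP minus SM6 on the log2 scale. Among the 10 brush border genes they were Lct (-3.63), Alpi (-3.26), Sis (-2.51) and Espn (-2.24). Among the other named brush border genes they were Ggt1 (-3.57), Enpep (-3.10), Mep1b (-2.87), Asah2 (-2.70) and Ace (-2.70). Among the enterocyte genes they were Slc6a19 (-3.08), Apoa1 (-2.60), Apoa4 (-2.44) and Krt20 (-2.28). Strain and isolation change together in these groups, and the summed levels of Paneth, goblet and enteroendocrine cell genes differ between them too, so what these differences belong to cannot be told apart. No outlier test was run on groups of 3 libraries.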

How the results depend on the processing

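Of 979 values of named genes under other settings, 905 kept their direction and side of the threshold, and of 1104 with 1 library left out, 945 did. No gene called in the main model reversed. For age in SM6, 0 to 4 members were called with 1 library left out, where 1.09% to 3.03% of all genes were called in either direction. For age in Lgr5-GFP, 0 to 1 were, with 3 under no filter beyond 1 count and 0 under limma voom or robust quasi-likelihood (4 and 6 at an unadjusted p under 0.05). Shares of all genes were 0.195% to 0.848% with 1 library left out. They were 1.16% without a filter, 0.546% under limma voom and 0.337% in the robust fit. For the difference of age effects, 3 to 4 were called, with 2 (Lct and Espn) under robust quasi-likelihood. Here 0.317% to 0.744% of all genes were called with 1 library left out and 0.374% in the robust fit, against 0.658% in the main fit. At 2 months 0 were called in every fit but the one without a filter (1), and at 22 months 1 to 5, with 2 (Lct and Espn) under robust quasi-likelihood. The share of all genes at 2 months was 0.529% without a filter, against 0.0898% in the main fit. At 22 months it was 0.300% to 0.927% with 1 library left out and 0.613% in the robust fit. No member was called on average under any setting. The cause of these changes was not tested.

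Replicate numbers did not pair the libraries: in 18 same-numbered pairs, deviations from group means correlated from -0.074 to 0.048. A replicate block left the counts of members called at 3, 1, 0, 4, 0 and 4 for age in SM6, age in Lgr5-GFP, average age, difference of age effects, and isolation at 2 and 22 months.

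Signs turned only where a member had not passed the test in that comparison. With library totals alone, which moved the median of all genes to -0.16 in SM6, 0.16 in Lgr5-GFP and 0.35 for their difference, Dpp4 was 0.00987 (difference of age effects), 0.076 (age in Lgr5-GFP) and -0.0471 (2 months), Mgam 0.0892 and 0.172, Myo1a 0.00883 and 0.176 (both difference and age in Lgr5-GFP), and Vil1 0.192 (age in Lgr5-GFP), 0.0121 (average) and 0.157 (22 months). Without the 2 libraries rich in defensins, Mgam was 0.0691, Myo1a 0.0803 and Vil1 0.0181 for age in Lgr5-GFP, and Vil1 was -0.102 (difference), 0.12 (age in SM6) and 0.0692 (average). For Mgam at 2 months the value was 0.0258 with a CPM of 1 in 3 libraries, 0.00985 without a filter, 0.0149 with 2 groups and 0.00505 without defensins in the totals. Under voom Treh was -0.0669 at 2 months and Vil1 -0.0542 for the difference. Vil1 for age in Lgr5-GFP was 0.0131 with DESeq2, 0.0133 with its size factors, 0.0129 with 2 groups and 0.0124 without defensins in the totals.

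With 1 library left out, values that turned ran, for age in SM6, from -0.0549 to 1.01 (Anpep) and -0.227 to 0.13 (Vil1), and for age in Lgr5-GFP from -0.0952 to 0.0651 (Mgam), -0.087 to 0.0757 (Myo1a) and -0.0598 to 0.0947 (Vil1). On average they ran from -0.0321 to 0.524 (Alpi), -0.573 to 0.0313 (Anpep), -0.0176 to 0.103 (Dpp4) and -0.115 to 0.0645 (Vil1). The difference for Vil1 ran from -0.13 to 0.224. At 2 months they ran from -0.0978 to 0.0694 (Mgam), -0.372 to 0.0134 (Myo1a), -0.321 to 0.388 (Treh) and -0.255 to 0.0998 (Vil1), and at 22 months from -0.17 to 0.125 (Vil1). Depth limits Treh most, with 24 counts at most.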
